A study of Xenopus tropicalis with 15 samples.

Results

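Peripheral blood cells of the frog Xenopus tropicalis were compared after 1.5 h in control culture with the same kind of cells taken before culture. The comparison rests on 6 of the 15 libraries of the series, 3 of control culture at 1.5 h and 3 of fresh cells, chosen by their labels, with libraries of the same replicate number matched as a block. It covers the whole deposited gene table, of which 8939 of 26531 genes had enough counts to be tested. All frogs were wild type. The cells were the total blood population, drawn from the heart into EDTA, which binds calcium and stops clotting, and washed 3 times in a frog-strength phosphate buffer that also held EDTA and fetal calf serum. The cultured cells were then kept for 1.5 h, without added hormone, in diluted IMDM culture medium containing calf serum. Fresh cells were sampled before any culture, so the medium, its serum and the time spent in it differ between the groups together and cannot be told apart. The other 9 libraries, control culture at 4.0 h and culture with 1 ng/mL erythropoietin (EPO) at 1.5 h and 4.0 h, shared the estimate of the spread and are described where the genes of this comparison were followed further. The labels call the replicates biological and do not say which animals gave them, so p-values measure the spread between these libraries.

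Expression was read by a 3' RNA-seq method, which counts reads near the end of each transcript. The control culture libraries held 2350234, 4472724 and 2550448 counts, and the fresh libraries 1329340, 2329659 and 1817170 counts, in the order of replicates 1, 2 and 3 that is kept throughout. The cultured libraries were thus the deeper ones within each replicate number, although with 3 libraries a group the exact permutation p of 0.1 is also the smallest possible. Levels are given as CPM, counts relative to library size after TMM scaling. Red cell transcripts dominated every library, with 12 globin genes at 458875 ± 25669 CPM in control culture and 457055 ± 22788 CPM in fresh cells (unscaled CPM, SD, n = 3 each). Libraries of replicate number 1 stood apart from numbers 2 and 3 in all 5 groups, on a second principal component that held 19.8% of the variance. In the fresh library of replicate 1, the shallowest of the 15, 6 genes at 20 CPM or more exceeded 5 times their level in each of the other 14 libraries. No other library held such a gene, and none of the 6 was called in the comparison below.

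Frog red cells keep their nucleus, and with it the means to transcribe genes while they circulate. They travel with nucleated thrombocytes, which do the work of platelets, and with granulocytes, monocytes and lymphocytes. When cells of many kinds are handled or meet serum, immediate early genes are switched on within minutes from factors already present, and cytokine signals through Janus kinases and STAT factors raise the SOCS and CISH inhibitors that damp the same receptors. Heat shock and ATF4 target genes form 2 further fast programmes, for misfolded protein and for a shortage of amino acids. In bulk blood RNA, fewer cells of a type and less RNA per cell cannot be told apart.

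After 1.5 h of control culture a small set of genes had changed, among them feedback inhibitors of cytokine signalling and immediate early transcription factors. edgeR's quasi-likelihood test with the replicate block called 117 genes at an adjusted p under 0.05, which is 1.31% of the genes tested. Of these, 63 rose (0.705%) and 54 fell (0.604%). More than 2-fold changes made up 43 of the rises and 27 of the falls. The libraries of the 2 groups did not overlap for 55 of the rises and 49 of the falls, where 6.65% of all genes tested lay wholly higher and 6.94% wholly lower in culture, 13.6% together. The median log2 fold change over all genes was 0.03, and 52.5% of them lay above 0. Without the block the same test called 29 genes, 16 higher and 13 lower, all of them among the 117. The count depended on the libraries: without control culture replicate 1, 60 genes were called, and without all 5 libraries of replicate number 1, 2 or 3 there were 48, 62 and 105 calls. A core of 34 calls, 21 rises and 13 falls, held when each of the 6 libraries was left out in turn.

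**Figure D1:**
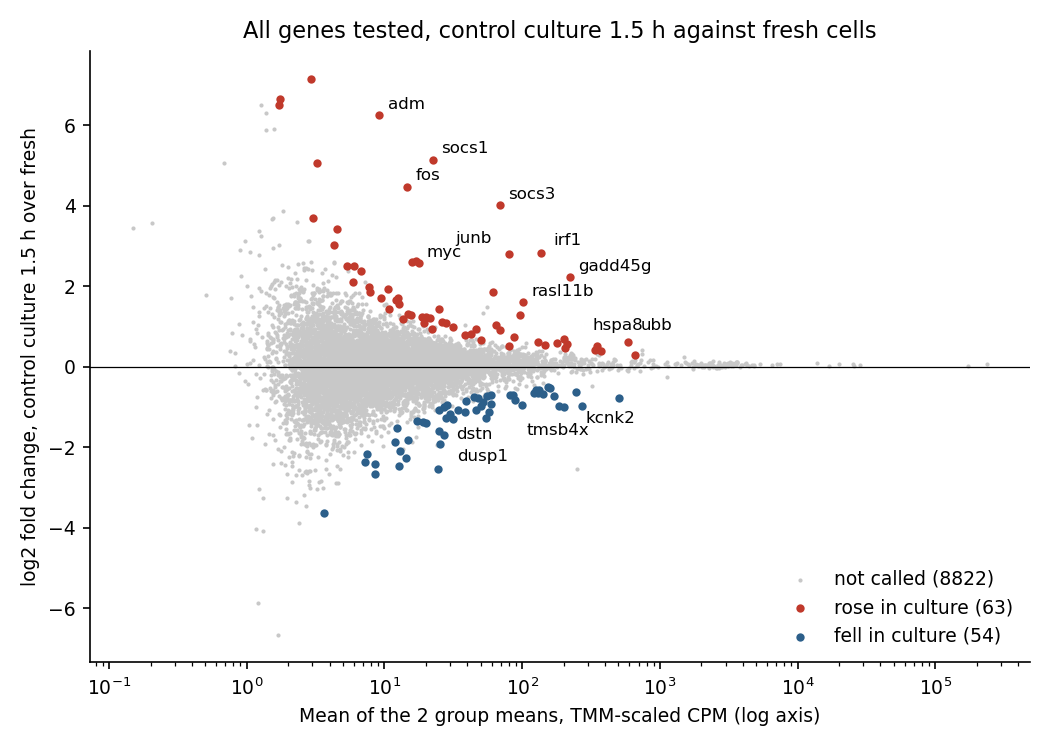
Each point is a gene, with the mean of the 2 group means in TMM-scaled CPM (log axis) against the log2 fold change of control culture at 1.5 h over fresh cells. The 63 genes that rose (red) reach log2 fold changes above 4 at low to middle levels, the 54 that fell (blue) mostly lie between -0.5 and -2.5, and the most abundant genes lie close to 0; for genes with no fresh count the plotted value depends on the fit's prior count.

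The cytokine receptor inhibitor genes socs1, socs3 and cish rose, socs1 by the most of the 12 largest rises with a readable symbol, no overlap and at least 20 CPM. The gene socs1, whose protein blocks Janus kinases, had 61.1, 26.9 and 43 CPM in control culture, against 1.48, 0 and 2.34 CPM in fresh cells. All 3 cultured libraries lay far above all 3 fresh ones, and the fresh libraries were near the detection limit. The change was 5.15 ± 0.52 on the log2 scale (SE), with an edgeR adjusted p of 3.05e-07, or 0.0623 without the block. Its relative socs3, which acts on receptors that use gp130 among others, had 192, 84.1 and 108 CPM in control culture, against 19.9, 3.03 and 3.51 CPM in fresh cells. The groups did not overlap, and replicate 1 was the highest in both (log2 fold change 4.03 ± 0.49, edgeR adjusted p = 0.00324, 0.0247 without the block). For cish, a STAT5 target that binds the EPO receptor and related receptors in mammals, the values were 98.2, 87.1 and 103 CPM in control culture and 12.6, 18.6 and 50.9 CPM in fresh cells. Here the cultured libraries lay close together while the fresh ones spread over a wide range, with replicate 3 the highest (log2 fold change 1.87 ± 0.27, edgeR adjusted p = 0.00132, 0.0926 without the block). These 3 calls held without each single library in turn, and that of socs3 was lost without all libraries of replicate number 3 (edgeR adjusted p = 0.209).

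Of 23 members tested of the cytokine receptor signalling and feedback list, 4 rose, against 0.705% of all genes called as risen. None fell, and the median log2 fold change was 0.13. The 4th rise was mcl1, a BCL2 family survival factor, with 241, 157 and 248 CPM in control culture and 153, 127 and 146 CPM in fresh cells. Its shift of 0.58 ± 0.12 passed in the blocked fit (edgeR adjusted p = 0.00252) but not without the control culture library of replicate 1 (0.054) or without the block (0.14). The kinase gene pim1, another STAT5 target, is not a member of this list but of that of MAP kinase phosphatases and feedback inhibitors. It had 62.8, 29.2 and 62.9 CPM in control culture and 35.4, 16.9 and 24 CPM in fresh cells and missed the threshold (log2 1.04, edgeR adjusted p = 0.0911). The receptor and kinase genes upstream were not called. The EPO receptor gene epor had 141, 173 and 171 CPM in control culture and 134, 125 and 193 CPM in fresh cells (log2 0.10 ± 0.25, edgeR adjusted p = 0.927), and jak2 had a log2 fold change of 0.05 ± 0.16. The members of this list that rose were the inhibitor genes socs1, socs3 and cish and the survival factor gene mcl1. Other inhibitor genes of the list were not called. Among them were socs2 (log2 -0.59 ± 0.53), socs5 (0.35 ± 0.51), socs6 (0.75 ± 0.85), socs7 (0.25 ± 0.31), sh2b3 (-0.47 ± 0.45) and ptpn6 (1.01 ± 0.47). Without the block, socs3 was the only member called.

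Of the lists, immediate early transcription factors and amino acid response genes each had 6 rises. The first list also holds early response genes of other kinds, such as gadd45g. Of 25 immediate early members tested, 6 rose (fos, junb, myc, gadd45g, jun and fosl1) and egr3 fell, which together is 7 of 25 against 1.31% of all genes. The median of the list was 0.79 on the log2 scale, and fosl1 set at its lower bound left it as it was. A positive value was found for 21 of its 25 members, against 52.5% of all genes tested. The counts were 5 to 9 rises when each of the 6 libraries was left out, and 3 rises without the block.

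The AP-1 subunit gene fos had 44.5, 18.2 and 21.1 CPM in control culture, against 2.21, 0 and 1.75 CPM in fresh cells. In fresh cells it was barely detected, and in culture every library held at least 18.2 CPM (log2 fold change 4.48 ± 0.50, edgeR adjusted p = 8.06e-09, 0.00534 without the block). Its partner junb reached 220.3, 95.8 and 109.8 CPM in control culture, against 28.8, 22.1 and 7.6 CPM in fresh cells (log2 fold change 2.82 ± 0.22, edgeR adjusted p = 4.57e-09, 0.0631 without the block). For both genes replicate 1 was the highest cultured library and also the highest fresh one. The gene myc, a growth-promoting transcription factor, had 34.9, 31.7 and 23.1 CPM in control culture and 9.6, 2.17 and 4.68 CPM in fresh cells, with no overlap (log2 fold change 2.57 ± 0.33, edgeR adjusted p = 2.71e-07, 0.000134 without the block). The stress and growth arrest gene gadd45g was the most abundant member that rose, at 383, 352 and 357 CPM in control culture, against 41.3, 124 and 74.8 CPM in fresh cells. Its cultured libraries lay in a narrow band while the fresh libraries spread widely, with replicate 1 the lowest (log2 fold change 2.23 ± 0.23, edgeR adjusted p = 0.00024, 0.00912 without the block). The calls of fos, junb, myc and gadd45g held without each single library in turn, and that of gadd45g was lost without all libraries of replicate number 3 (edgeR adjusted p = 0.179).

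The remaining AP-1 calls rested on fewer libraries. For jun, the classical partner of fos, control culture gave 8.73, 35.7 and 13.5 CPM and fresh cells 5.91, 5.63 and 5.85 CPM. The fresh libraries were nearly equal and the cultured ones spread, with replicate 2 the highest. Its log2 fold change was 1.71 ± 0.37 with an edgeR adjusted p of 0.00442, lost without control culture replicate 2 (0.168), without fresh replicate 2 (0.174) and without the block (0.323). The Fos-related gene fosl1 had 45 counts in the 3 cultured libraries together and 0 in the fresh ones, which makes it at least 9.14-fold higher in culture against a floor of 3 counts over the fresh group. That call (edgeR adjusted p = 0.0229) was lost without control culture replicate 1 (0.16), fresh replicate 1 (0.113) or fresh replicate 2 (0.0914), and without the block (0.147). Among members that were not called, ier2 had 109, 62.6 and 71.6 CPM in control culture and 59.1, 14.3 and 19.3 CPM in fresh cells (log2 1.49 ± 0.35, edgeR adjusted p = 0.0642). The small Maf gene maff had 48.9, 63.6 and 73.6 CPM in control culture and 42.8, 41.6 and 39.2 CPM in fresh cells (log2 0.59 ± 0.16, edgeR adjusted p = 0.0517). Both had no overlap between the groups and fell just short of the threshold. The zinc finger gene egr1, often the first of these genes to respond in mammalian cells, had 18.3, 8.48 and 5.97 CPM in control culture and 19.2, 3.03 and 0 CPM in fresh cells. Its groups overlapped, and replicate 1 was high in each (log2 0.79 ± 0.51, edgeR adjusted p = 0.559).

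**Figure D2:**
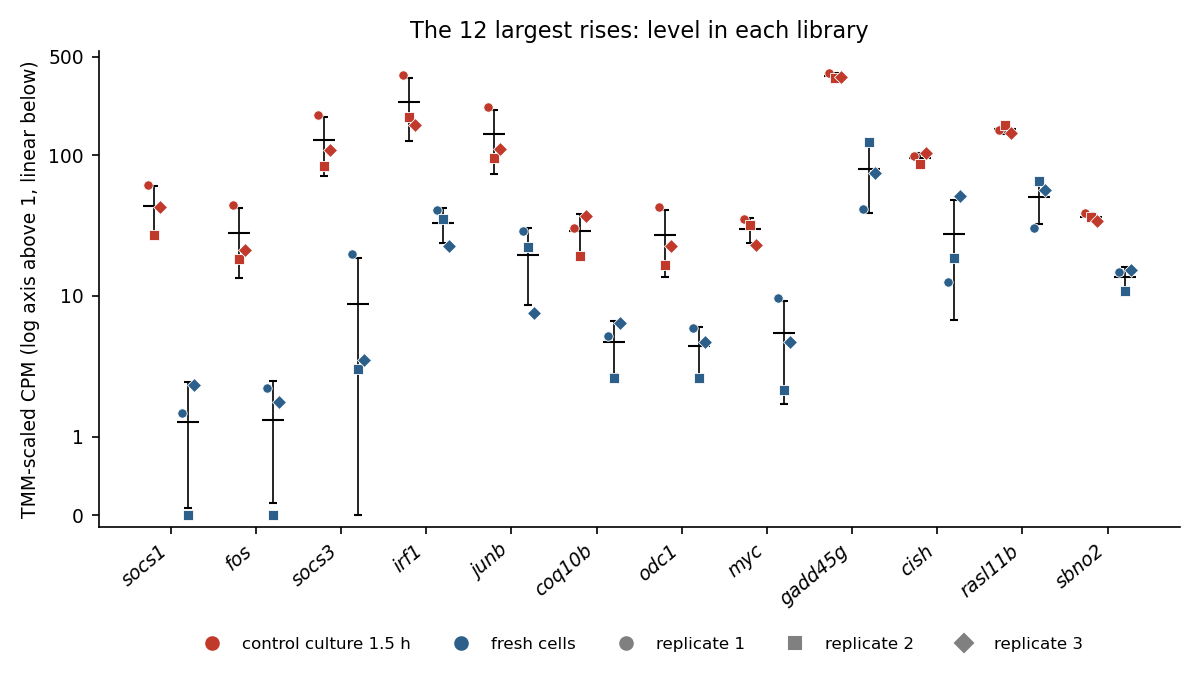
TMM-scaled CPM in each library (log axis above 1, linear below) for the 12 largest rises with a readable gene symbol, no overlap between groups and at least 20 CPM in the higher group; red is control culture at 1.5 h, blue fresh cells, marker shape the replicate number, and black bars the mean and SD (n = 3), clipped at 0. The fresh libraries of socs1 and fos lie at or below 2.34 CPM while their cultured libraries lie at 18.2 CPM or more.

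Regulators of the interferon and NF-kB responses also rose, each as the only called member of its list, where 1.31% of all genes tested were called. The interferon-induced transcription factor gene irf1 had 369, 185 and 164 CPM in control culture, against 40.6, 35.1 and 22.8 CPM in fresh cells. It was the most abundant of the 12 largest rises after gadd45g, with replicate 1 the highest in culture (log2 fold change 2.82 ± 0.28, edgeR adjusted p = 0.000411, 0.0469 without the block). The other 15 members tested of the interferon and antigen presentation list were not called, among them b2m (log2 0.05 ± 0.058) and ifit5 (log2 -0.48 ± 0.17). The list median was 0.42, with 12 of 16 members above 0, against 52.5% of all genes tested. The uncalled genes tap1 (log2 1.24 ± 0.37, edgeR adjusted p = 0.077) and irf9 (log2 0.72 ± 0.22, edgeR adjusted p = 0.0782) were higher in culture without overlap. The gene nfkbia, which encodes the inhibitor that holds NF-kB in the cytoplasm and is itself an NF-kB target, had 142, 132 and 133 CPM in control culture and 35.4, 65.9 and 67.2 CPM in fresh cells (log2 fold change 1.28 ± 0.18, edgeR adjusted p = 9.32e-06, 0.0232 without the block). It rose in all 3 replicate numbers to a nearly equal level. Of the other 20 members of the NF-kB list none was called; nfkb2 and relb had log2 values of 0.09 ± 0.41 and 0.65 ± 0.39. The transcriptional coregulator gene sbno2 had 38.8, 36.4 and 34.2 CPM in control culture and 14.8, 10.8 and 15.2 CPM in fresh cells (log2 fold change 1.44 ± 0.26, edgeR adjusted p = 0.000372, 0.0054 without the block). The calls of irf1, nfkbia and sbno2 held without each single library in turn. Without all libraries of a replicate number, irf1 was lost for number 3 (edgeR adjusted p = 0.16) and sbno2 for number 2 (0.056).

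The smallest p of all genes belonged to rasl11b, which encodes a Ras-like small GTPase. It had 150.1, 163 and 142 CPM in control culture, against 30.3, 65.9 and 56.1 CPM in fresh cells, a narrow band in culture well above a wider one in fresh cells (log2 fold change 1.61 ± 0.16, edgeR adjusted p = 6.55e-10, 0.0119 without the block). The gene odc1, ornithine decarboxylase, which makes the first step of polyamine synthesis and is a known target of MYC in mammals, had 42.8, 16.5 and 22.7 CPM in control culture and 5.91, 2.6 and 4.68 CPM in fresh cells. The lowest cultured library lay above the highest fresh one (log2 fold change 2.59 ± 0.35, edgeR adjusted p = 7.79e-07, 0.0232 without the block). The peptide hormone gene adm, adrenomedullin, had 148 counts in the 3 cultured libraries, at 29.7, 11.7 and 13.1 CPM, and a count of 1 in the fresh libraries together. The ratio of scaled counts was 90.2 with a 95% counting interval of 15.9 to 3587 (edgeR adjusted p = 3.21e-07, 6.93e-05 without the block). It was the only one of 29 tested members of the glycolysis and hypoxia list to be called, where 1.31% of all genes tested were called. This interval covers counting error only, since it pools the counts of each group and leaves out the spread between libraries. PCR copies of a molecule are counted as separate reads, which it does not allow for either.

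Of the BCL2 family, bcl2l10 had 89, 56.6 and 127 CPM in control culture and 41.3, 31.6 and 69.6 CPM in fresh cells. Read across all libraries its groups overlapped, yet within each replicate number the cultured library was the higher (log2 fold change 0.93 ± 0.15, edgeR adjusted p = 8.35e-05, 0.411 without the block). Its relative bcl2l14 had 72, 60.1 and 52.1 CPM in control culture and 25.8, 32.1 and 35.7 CPM in fresh cells, with no overlap (log2 fold change 0.94 ± 0.18, edgeR adjusted p = 0.000633, 0.0232 without the block). The Krüppel-like factor gene klf17 had 383, 374 and 479 CPM in control culture and 256, 262 and 349.6 CPM in fresh cells (log2 fold change 0.52 ± 0.092, edgeR adjusted p = 0.000296, 0.242 without the block). It shared the pattern of bcl2l10, a rise of similar size inside each number on top of a difference between numbers. The calls of rasl11b, odc1, adm, bcl2l10, bcl2l14 and klf17 held without each single library in turn, and that of bcl2l14 was lost without all libraries of replicate number 1 (edgeR adjusted p = 0.121). Of the 12 rises plotted above, the one whose call did not hold was coq10b, a gene of the mitochondrial coenzyme Q pathway, at 30.5, 19.2 and 37 CPM in control culture and 5.17, 2.6 and 6.43 CPM in fresh cells. Its log2 fold change was 2.64 ± 0.54 with an edgeR adjusted p of 0.0261, and the adjusted p passed 0.05 without control culture replicate 1 (0.095) and without fresh replicates 1 (0.244), 2 (0.153) and 3 (0.0788), and was 0.0954 without the block.

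Protein-folding and amino acid stress genes moved less and less evenly. Of 32 heat shock proteins and co-chaperones tested, 4 rose, none fell, and the median log2 fold change was 0.22. Of 38 amino acid and ATF4 response genes tested, 6 rose, none fell, and the median was 0.13. Both counts stand against 0.705% of all genes called as risen, and both were 0 without the block. They also depended on single libraries, with 1 to 5 heat shock rises and 1 to 5 ATF4 rises when each of the 6 libraries was left out. Values above 0 were found for 20 of the 32 heat shock members and 22 of the 38 ATF4 members, against 52.5% of all genes tested.

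The most abundant heat shock gene that rose was hspa8, the constitutive HSP70, with 471, 437 and 352 CPM in control culture and 399, 322 and 242 CPM in fresh cells. The groups overlapped, and each cultured library exceeded the fresh library of its number (log2 fold change 0.40 ± 0.091, edgeR adjusted p = 0.00695, 0.0524 without fresh replicate 2 and 0.0555 without fresh replicate 3). The cytosolic chaperone gene hsp90ab1 had 148, 96.3 and 82.8 CPM in control culture and 73.8, 68.9 and 50.3 CPM in fresh cells (log2 fold change 0.74 ± 0.14, edgeR adjusted p = 0.000838, 0.0542 without control culture replicate 1). The inducible HSP70 gene hspa1b had 13.1, 30.9 and 13.5 CPM in control culture and 5.91, 7.8 and 5.85 CPM in fresh cells, with replicate 2 the highest in both groups. The change of 1.55 ± 0.35 (edgeR adjusted p = 0.00703) was lost without control culture replicate 2 (0.0972) or fresh replicate 2 (0.142). A near-identical gene, hspa1a, was more abundant and had a log2 value of 0.02 ± 0.15, and how the counting divided reads between such copies is not given in the sources used here. The endoplasmic reticulum chaperone gene hspa5 had 41.4, 23.2 and 12.3 CPM in control culture and 28.8, 6.94 and 4.09 CPM in fresh cells. Differences between replicate numbers were larger than the change itself (1.09 ± 0.27 on the log2 scale, edgeR adjusted p = 0.0213), and the call was lost without control culture replicate 1 (0.109) or 2 (0.0848) and without fresh replicate 2 (0.224) or 3 (0.0859). The inducible co-chaperone gene dnajb1, a standard readout of heat shock, was not called, at 35.8, 45.7 and 22.3 CPM in control culture and 32.5, 19.5 and 27.5 CPM in fresh cells.

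In the ATF4 group the transcription factor gene atf4 had 286, 233 and 193 CPM in control culture and 176, 162 and 168 CPM in fresh cells, without overlap. The log2 fold change was 0.47 ± 0.10 (edgeR adjusted p = 0.00511), lost without control culture replicate 1 (0.0519) or 2 (0.107) and without fresh replicate 1 (0.0858). Of the amino acid transporter genes, slc38a2, a sodium-coupled carrier of neutral amino acids, had 133, 60.6 and 68.4 CPM in control culture and 55.4, 41.2 and 26.3 CPM in fresh cells (log2 fold change 1.03 ± 0.21, edgeR adjusted p = 0.00479, 0.121 without fresh replicate 1 and 0.0752 without fresh replicate 3). The cationic amino acid carrier gene slc7a3 had 44.5, 14.5 and 19.1 CPM in control culture and 19.9, 4.77 and 8.77 CPM in fresh cells. The groups overlapped, with a log2 fold change of 1.24 ± 0.29 (edgeR adjusted p = 0.00941, 0.21 without control culture replicate 1 and 0.115 without fresh replicate 2). The gene slc3a2, the heavy chain shared by several carriers, rose by 1.18 ± 0.30 on the log2 scale (edgeR adjusted p = 0.0257), a call lost without control culture replicates 1 (0.17) or 2 (0.0685) or fresh replicate 1 (0.316). The uncalled transporter genes slc7a5, slc1a5 and slc7a11 had log2 values of -1.65 ± 0.95, 0.78 ± 0.41 and -0.02 ± 0.52. The other rises were nupr1, a stress-induced nuclear protein gene, at 0.62 ± 0.13 (edgeR adjusted p = 0.00435, 0.0834 without fresh replicate 1), and ppp1r15b, a subunit of the phosphatase that restores translation after stress. The change of ppp1r15b was 0.94 ± 0.24 (edgeR adjusted p = 0.0261, lost without control culture replicates 1 (0.107) or 3 (0.0822) and fresh replicates 1 (0.0622) or 3 (0.137)). The stress effector gene ddit3, also known as CHOP, was not called, with 33.2, 18 and 22.7 CPM in control culture and 13.3, 15.2 and 15.8 CPM in fresh cells (log2 0.65 ± 0.25, edgeR adjusted p = 0.239).

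A polyubiquitin gene and an SR splicing factor gene rose from high levels. The polyubiquitin gene ubb had 746, 605 and 779.8 CPM in control culture and 415, 404 and 578 CPM in fresh cells, with no overlap (log2 fold change 0.61 ± 0.081, edgeR adjusted p = 4.06e-07, 0.0962 without the block). It was the only call among 48 tested proteasome and ubiquitin genes, where 1.31% of all genes were called. The list median was 0.17, and 39 of 48 lay above 0, against 52.5% of all genes. The other polyubiquitin gene, ubc, had 504, 498 and 507 CPM in control culture and 440.0, 423 and 476 CPM in fresh cells and was not called (log2 0.17 ± 0.082, edgeR adjusted p = 0.373). The SR protein gene srsf5 had 243, 220.3 and 279.7 CPM in control culture and 99.7, 175 and 187 CPM in fresh cells (log2 fold change 0.70 ± 0.12, edgeR adjusted p = 0.000151, 0.113 without the block). The calls of ubb and srsf5 held without each single library in turn, and that of srsf5 was lost without all libraries of replicate number 1 (edgeR adjusted p = 0.0995). Of 49 tested splicing factor genes, srsf5 and the RNA helicase gene ddx5 rose, against 0.705% of all genes called as risen. For ddx5 (log2 0.53 ± 0.15, edgeR adjusted p = 0.0492) the call held only without fresh replicate 3, and the adjusted p reached 0.30 without control culture replicate 1, 0.0682 without control culture replicate 2, 0.0733 without control culture replicate 3, 0.213 without fresh replicate 1 and 0.206 without fresh replicate 2.

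Smaller lists gave 1 to 3 calls each, where 1.31% of all genes tested were called. Of 26 apoptosis and p53 genes, bcl2l14 and mcl1 rose, as given above. The autophagy receptor gene sqstm1, the only call of 33 oxidative stress genes and of 33 autophagy genes, had 523, 331 and 326 CPM in control culture and 318, 292 and 245 CPM in fresh cells. The cultured libraries lay above the fresh ones, by 0.43 ± 0.091 on the log2 scale (edgeR adjusted p = 0.00383, 0.0641 without control culture replicate 1 and 0.106 without fresh replicate 1). Of 21 histone and cell cycle genes, pcna, the sliding clamp of DNA replication, rose, with 55.4, 35.9 and 24.7 CPM in control culture and 17, 13.4 and 22.2 CPM in fresh cells (log2 fold change 1.09 ± 0.24, edgeR adjusted p = 0.00649, lost without control culture replicate 1 (0.143), fresh replicate 1 (0.0636) or fresh replicate 2 (0.117)). Of 14 clock genes, the repressor gene cry1 rose, with 41.4, 44.4 and 39.4 CPM in control culture and 18.5, 18.2 and 26.9 CPM in fresh cells (log2 fold change 0.99 ± 0.22, edgeR adjusted p = 0.00583, 0.0809 without control culture replicate 2 and 0.0628 without fresh replicate 2). Of 20 TGF-beta, BMP and SMAD targets, junb was the only call.

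The 54 genes that fell included 18 without a descriptive symbol. Among named genes the smallest p belonged to tmsb4x, thymosin beta 4, the small protein that holds actin monomers in reserve. It had 181, 88.8 and 111 CPM in control culture, against 309, 171 and 257 CPM in fresh cells. Across libraries the groups overlapped, since control culture replicate 1 exceeded fresh replicate 2, but each cultured library lay well below the fresh library of its number (log2 fold change -0.97 ± 0.12, edgeR adjusted p = 2.71e-07, 0.38 without the block). The potassium channel gene kcnk2, also known as TREK-1, had 138, 104 and 164 CPM in control culture and 339, 221 and 251 CPM in fresh cells, with no overlap (log2 fold change -0.99 ± 0.13, edgeR adjusted p = 4.06e-07, 0.00511 without the block). The matrix metalloproteinase gene mmp7 had 170.1, 113 and 102 CPM in control culture and 254, 205 and 172 CPM in fresh cells (log2 fold change -0.73 ± 0.13, edgeR adjusted p = 0.000169, 0.186 without the block). The adaptor gene shc3 had 103, 95.1 and 108 CPM in control culture and 176, 148 and 158 CPM in fresh cells, both tight and apart (log2 fold change -0.65 ± 0.14, edgeR adjusted p = 0.00324, 0.0781 without the block). The gene noxred1 had 42.3, 35.7 and 30.6 CPM in control culture and 93, 80.2 and 64.3 CPM in fresh cells (log2 fold change -1.13 ± 0.18, edgeR adjusted p = 2.71e-05, 0.00511 without the block). These 5 calls held without each single library in turn, and that of shc3 was lost without all libraries of replicate number 1 (edgeR adjusted p = 0.123) or 2 (0.0594).

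The MAP kinase phosphatase gene dusp1 went the other way from fos and junb, although in mammals it is induced with them. It had 11.8, 8.98 and 8.75 CPM in control culture, against 69.4, 21.2 and 32.2 CPM in fresh cells. The cultured libraries were nearly equal, and the fresh ones spread widely with replicate 1 the highest (log2 fold change -1.92 ± 0.34, edgeR adjusted p = 0.00025, 0.00912 without the block). Its call held without each single library, fresh replicate 1 included (0.0275), and was lost without all libraries of replicate number 1 (edgeR adjusted p = 0.12). It was the only call among 11 tested MAP kinase phosphatases and feedback inhibitors, where 1.31% of all genes tested were called. The serum-induced kinase gene sgk1 of the same list had 48, 58.4 and 118 CPM in control culture and 11.1, 35.5 and 39.2 CPM in fresh cells (log2 1.34 ± 0.32, edgeR adjusted p = 0.0542). The corepressor gene nab2, which binds EGR factors, had 20.5, 17.5 and 17.1 CPM in control culture and 34, 54.6 and 43.8 CPM in fresh cells (log2 fold change -1.28 ± 0.27, edgeR adjusted p = 0.00319, 0.109 without fresh replicate 2). The zinc finger gene egr3 had 29.7, 34.7 and 44.2 CPM in control culture and 76, 47.2 and 77.8 CPM in fresh cells. All cultured libraries lay below the fresh ones, by -0.86 ± 0.20 on the log2 scale (edgeR adjusted p = 0.0106), lost without control culture replicate 1 (0.203), fresh replicate 1 (0.113), fresh replicate 3 (0.075) and without the block (0.0728). The gene next to egr3 in the RefSeq annotation of the frog assembly UCB_Xtro_10.0 is bin3, which encodes a membrane-bending BAR domain protein, and it fell as well. It had 18.8, 19 and 17.5 CPM in control culture and 34.7, 42.9 and 47.4 CPM in fresh cells (log2 fold change -1.18 ± 0.26, edgeR adjusted p = 0.00467, 0.0276 without the block), a call that held without each single library in turn and was lost without all libraries of replicate number 2 (0.0887) or 3 (0.0732). No other 2 of the 117 called genes were neighbours in that annotation.

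Of 37 actin cytoskeleton and SRF target genes tested, none rose, and tmsb4x and dstn fell, against 0.604% of all genes called as fallen. The list median was -0.14, and 28 of 37 members lay below 0, where 52.5% of all genes lay above 0. The gene dstn, destrin, which cuts actin filaments, had 14.8, 11 and 9.15 CPM in control culture and 68.7, 24.3 and 22.2 CPM in fresh cells. Fresh replicate 1 stood far above the other fresh libraries (log2 fold change -1.59 ± 0.32, edgeR adjusted p = 0.00157), and the call was lost without it (0.0835) and without the block (0.117). The most abundant member, the gamma actin gene actg1, had 1318, 970.2 and 828 CPM in control culture and 1428, 1039 and 1194 CPM in fresh cells and was not called (log2 -0.25 ± 0.076, edgeR adjusted p = 0.0967). The connective tissue growth factor-like gene ctgfl had 20.5, 6.74 and 13.9 CPM in control culture and 42.8, 29 and 50.3 CPM in fresh cells (log2 fold change -1.69 ± 0.32, edgeR adjusted p = 0.000688, 0.0564 without fresh replicate 2 and 0.495 without the block).

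The other 4 of the 12 largest falls have no role that is given here, and none of their calls held without each single library. For msantd4 the log2 fold change was -1.11 ± 0.25 (edgeR adjusted p = 0.00597, 0.0555 without the block), lost without control culture replicate 1 (0.0521) or 2 (0.101) or fresh replicate 3 (0.0668). For agbl1 the log2 fold change was -1.07 ± 0.25 (edgeR adjusted p = 0.00952, 0.0747 without the block), lost without control culture replicate 1 (0.106) or fresh replicate 1 (0.0755). For degs3 the log2 fold change was -0.99 ± 0.26 (edgeR adjusted p = 0.0393, 0.173 without the block), lost without control culture replicate 1 (0.20), 2 (0.0848) or 3 (0.168) or fresh replicate 1 (0.113), 2 (0.142) or 3 (0.0654). For rbm23 the log2 fold change was -0.93 ± 0.24 (edgeR adjusted p = 0.0261, 0.113 without the block), lost without control culture replicate 1 (0.0827), 2 (0.0916) or 3 (0.147) or fresh replicate 1 (0.0981) or 2 (0.109).

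**Figure D3:**
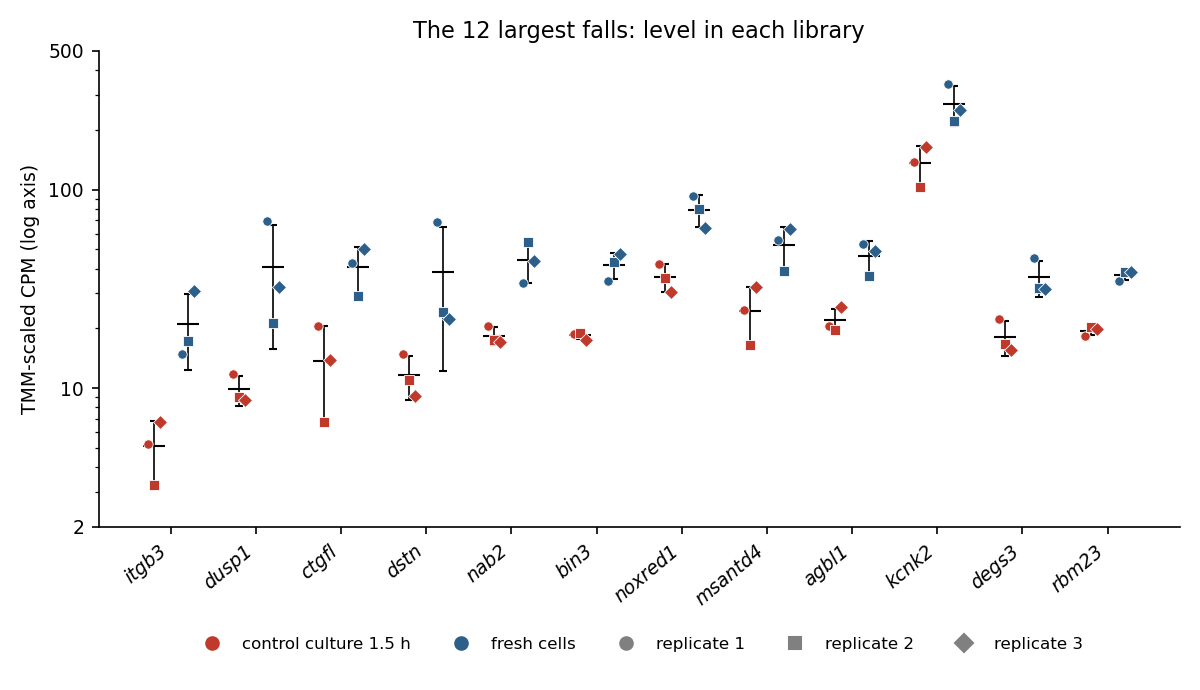
TMM-scaled CPM in each library (log axis) for the 12 largest falls chosen by the same rule as the rises; red is control culture at 1.5 h, blue fresh cells, marker shape the replicate number, and black bars the mean and SD (n = 3). The 3 cultured libraries of dusp1 lie between 8.75 and 11.8 CPM, below all 3 fresh libraries, which reach 69.4 CPM in replicate 1.

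Marker genes of thrombocytes and leukocytes were mostly at lower levels in culture, beside the falls above. Over all genes tested, 52.5% had a log2 fold change above 0 and 0.604% were called as fallen. Of 9 thrombocyte markers tested 8 were lower, with a median log2 fold change of -1.32, and 1 passed the test. That gene was itgb3, the beta chain of the fibrinogen receptor, at 5.24, 3.24 and 6.76 CPM in control culture and 14.8, 17.3 and 31 CPM in fresh cells. A log2 fold change of -2.09 ± 0.49 (edgeR adjusted p = 0.00995) was lost without control culture replicates 1 (0.070), 2 (0.0514) or 3 (0.0796) and without fresh replicates 2 (0.127) or 3 (0.0652), and was 0.0842 without the block. The summed level of the 17 thrombocyte markers in the table was 349 to 471 unscaled CPM in control culture and 399 to 496 in fresh cells, but tubb1 made up most of it and was not called (log2 0.08 ± 0.09). The other 16 summed to 53.8 ± 21.8 unscaled CPM in control culture and 113 ± 40.6 in fresh cells (SD, n = 3 each), a ratio of 0.478, with no overlap between the groups. Leaving out tubb1 was not planned, and it was the only tested marker of the list that was higher in culture. The lack of overlap therefore depends on that choice. All 17 together gave a ratio of 0.888, with overlap and an exact permutation p of 0.3. None of the 17 was at 0 in all 6 libraries.

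Against 52.5% of all genes above 0 and 0.604% called as fallen, 18 of 21 granulocyte and monocyte markers tested were lower. The median was -0.63, and 1 marker passed the test. It was cybb, the catalytic subunit of the phagocyte oxidase, at 9.16, 3.74 and 3.18 CPM in control culture and 23.6, 18.6 and 12.9 CPM in fresh cells. The log2 fold change was -1.86 ± 0.49 (edgeR adjusted p = 0.0343), and the call was lost whichever of the 6 libraries was left out, at adjusted p of 0.0871, 0.186 and 0.135 without control culture replicates 1, 2 and 3, and 0.0711, 0.147 and 0.0629 without fresh replicates 1, 2 and 3. The summed level of its 26 markers in the table ran from 283 to 433 unscaled CPM in control culture and from 378 to 691 in fresh cells, with lyz and mmp8 at 0 in all 6 libraries. For 19 T and NK cell markers the sums were 20.3 to 34.9 CPM in control culture and 42.9 to 52.7 in fresh cells, and for 15 endothelial markers 18.0 to 22.6 and 30.8 to 41.2 CPM. Neither pair of ranges overlapped, and the exact permutation p of 0.1 is the smallest possible. No T or NK marker of 4 tested and no endothelial marker of 5 tested was called, and cd8b, zap70, il7r, lat, tie1, egfl7 and plvap were at 0. B cell and heart muscle markers summed to 6.48 to 14 and 15.4 to 23.0 CPM in control culture, against 8.80 to 17.3 and 19.3 to 25.6 CPM in fresh cells, with tnnt2, tnnc1, myl2, nppa and nppb of the heart list and blk of the B cell list at 0. The single B cell gene tested and the 2 heart genes tested were not called. Which of these markers frog red cells also express is not known here, and the part of these cell types in the falls was not tested.

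No tested member of the red cell gene lists passed the test. Genes outside these lists are not covered by that statement. None of 10 tested globins, 23 membrane and skeleton genes, 18 erythroid transcription factors or 31 iron and heme genes was called. Over all genes tested 1.31% were called, so lists this short can be without a call. The list medians were 0.05, 0.03, 0.02 and 0.05 on the log2 scale. The adult alpha globin gene hba1 had a log2 fold change of 0.06 ± 0.04, and hbg1 of 0.03 ± 0.04; reads of near-identical globin copies may be shared between them. The heme synthesis gene alas2 had 3569, 4249 and 4244 CPM in control culture and 3495, 3911 and 4369 CPM in fresh cells (log2 0.04 ± 0.053). The anion exchanger gene slc4a1 had 305, 413 and 409 CPM in control culture and 278, 447 and 322 CPM in fresh cells (log2 0.11 ± 0.097), and the erythroid master factor gene gata1 175, 137 and 114 CPM in control culture and 176, 148 and 110.5 CPM in fresh cells (log2 -0.03 ± 0.13). For these genes the libraries of the groups overlapped, and replicate number moved the level more than culture did. The transferrin receptor gene tfrc was low in both groups (log2 0.38 ± 0.57, edgeR adjusted p = 0.853).

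Ribosomal protein genes showed the smallest changes of all lists. All 76 cytosolic ribosomal protein genes lay between -0.05 and 0.14 on the log2 scale and none was called, against 1.31% of all genes tested. None of 64 ribosome biogenesis genes (median -0.06) or 71 nuclear-encoded respiratory chain genes (median 0.10) was called either, and of 51 translation factors only the gene eif1, which guides start codon selection, rose, by 0.29 ± 0.079 (edgeR adjusted p = 0.0425, above 0.05 without control culture replicate 1 (0.142), 2 (0.20) or 3 (0.0971) and fresh replicate 1 (0.269) or 2 (0.158)). Of 14 glucocorticoid receptor targets tested, nfkbia rose and dusp1 fell, as given above, where 1.31% of all genes tested were called. Several genes known to follow glucocorticoids, nutrient restraint or cold in mammals were not called: tsc22d3 had a log2 value of 0.25 ± 0.17, txnip 0.27 ± 0.28, sesn1 0.16 ± 0.34, and the cold-inducible RNA-binding protein gene cirbp 0.12 ± 0.089. No gene was called of 29 tested in the FOXO, sestrin and nutrient-restraint list, of 24 in the cholesterol synthesis list or of 18 mRNA decay regulators. With 1.31% of all genes called, lists of this size can also be without a call.

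**Figure D4:**
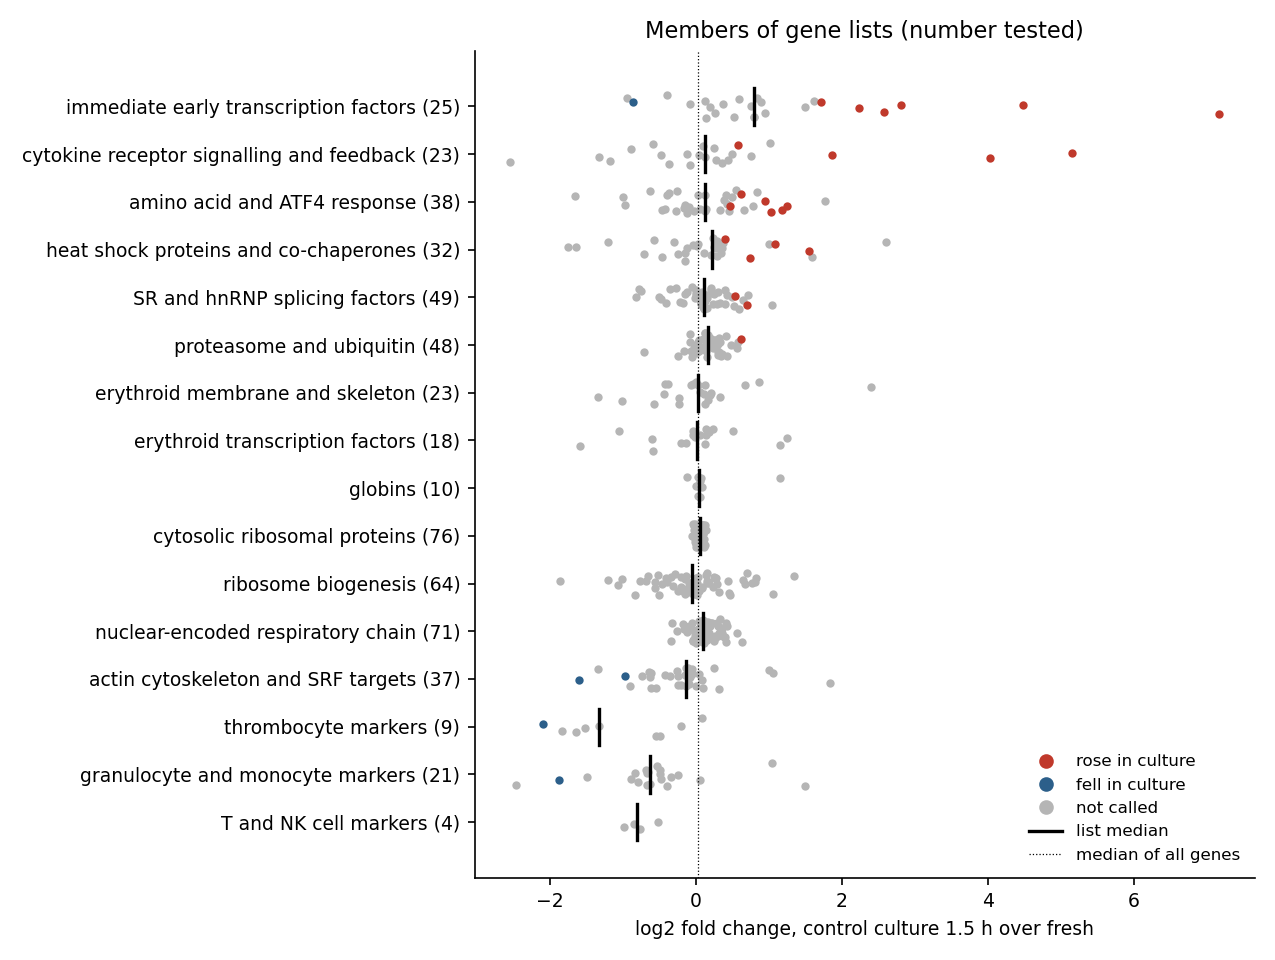
Each point is a tested member of a gene list, placed by its log2 fold change of control culture at 1.5 h over fresh cells; red rose, blue fell and grey was not called, with the list median as a black bar, the median of all genes as a dotted line and the number tested in brackets. The immediate early list sits to the right with a median of 0.79, the thrombocyte markers to the left with -1.32, and the ribosomal protein genes in a narrow band at 0.

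Several of the rises were smaller at the later time. The contrast of control culture at 4.0 h with 1.5 h shares the 1.5 h libraries with the comparison above, so its values are set beside it and are not independent of it. The mean level of socs1 was 1.27 CPM in fresh cells, 43.7 CPM at 1.5 h and 8.69 CPM at 4.0 h, with a log2 difference of -2.35 ± 0.33 between the 2 culture times (edgeR adjusted p = 0.00034). For cish the means were 27.4, 96 and 25.8 CPM, with a difference of -1.96 ± 0.26 (edgeR adjusted p = 0.00233). The same order held for gadd45g, at 80, 364 and 119.9 CPM (log2 -1.62 ± 0.22, edgeR adjusted p = 0.0114), for rasl11b, at 50.8, 152 and 68.2 CPM (log2 -1.19 ± 0.15, edgeR adjusted p = 1.4e-06), and for myc, at 5.48, 29.9 and 12.4 CPM (log2 -1.28 ± 0.26, edgeR adjusted p = 0.0132). Each of these 5 genes was called lower at 4.0 h than at 1.5 h. What share of all the rises, or of all genes tested, was called between these times is not given here. Other rises had no called difference between the times. The gene irf1 had means of 32.8, 239 and 202 CPM (log2 -0.24 ± 0.23, edgeR adjusted p = 0.991), and ubb had 466, 710.2 and 621 CPM (log2 -0.19 ± 0.079, edgeR adjusted p = 0.876). Of the falls, kcnk2 had means of 270.1, 135 and 179.9 CPM and no called difference between the times (log2 0.43 ± 0.13, edgeR adjusted p = 0.517), and tmsb4x 245, 127 and 109 CPM (log2 -0.21 ± 0.13, edgeR adjusted p = 0.991).

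In culture with EPO for 1.5 h, cish averaged 366 CPM, socs1 117 CPM and socs3 236 CPM, against 96, 43.7 and 128 CPM in control culture at the same time. Control culture thus already held part of the level that EPO culture reached for these 3 inhibitors, and their fresh means were 27.4, 1.27 and 8.83 CPM.

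**Figure D5:**
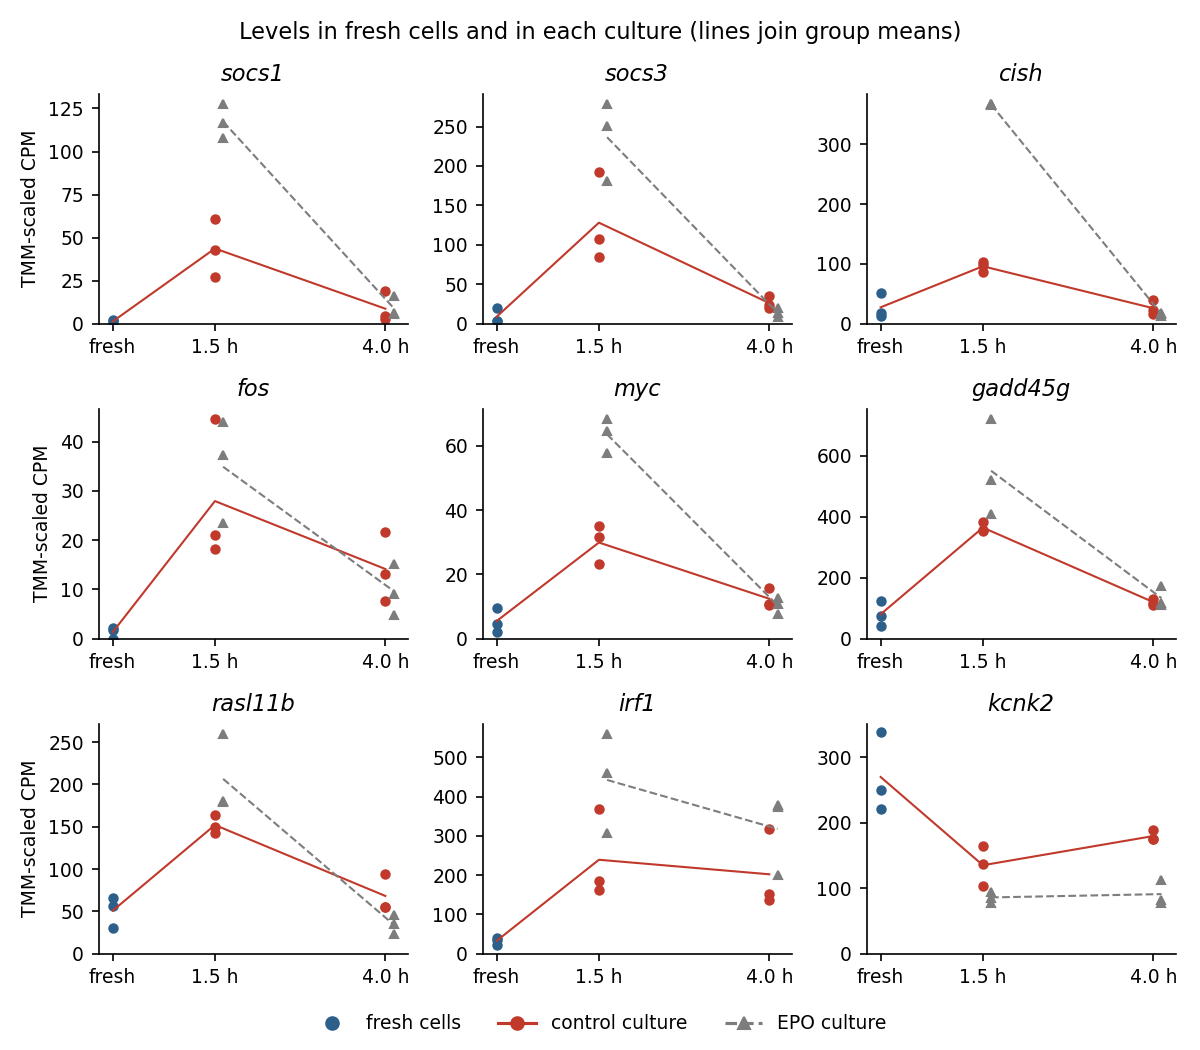
TMM-scaled CPM of 9 genes in fresh cells, in control culture at 1.5 h and 4.0 h (circles, solid line through the means) and in EPO culture at the same times (triangles, dashed line); each point is a library, and each vertical axis starts at 0. The means of socs1, socs3, cish, fos, myc, gadd45g and rasl11b are higher in control culture at 1.5 h than in fresh cells and lower again at 4.0 h, irf1 lies above its fresh mean at both times, and kcnk2 below it.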

How the data were processed

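Expression was measured in 15 libraries of total peripheral blood cells, 5 groups of 3. The authors deposited raw whole-number counts per gene, 1 column per library. Tools in the submitters' processing notes are R 4.3.2, Salmon, BWA 0.7.17-r1188 and fastp 0.21.0. The sources used here do not give their order, the genome build, the annotation or the use of strand, so reads of overlapping, antisense or near-identical genes may be shared. Of 26531 symbols, 26530 matched the RefSeq gene table of UCB_Xtro_10.0, used for names and neighbours only.

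In R 4.3.3 with edgeR 4.0.16, filterByExpr on the 5 groups left 8939 genes. Libraries were scaled by TMM, and 5 group means plus the replicate number were fitted to all 15 libraries by robust quasi-likelihood, with 8 residual degrees of freedom and a biological coefficient of variation of 0.241. The contrast was control culture at 1.5 h minus fresh cells, two-sided, Benjamini-Hochberg adjusted over the genes tested, with 0.05 as threshold. Standard errors were obtained from the log2 fold change and the square root of F. The fit was also run on counts simulated with known changes and a replicate effect, from the same kind of model as is fitted. Outlying single libraries were not simulated, so that run does not check how calls respond to them.

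Whether replicate numbers pair the libraries was checked on 1417 genes whose mean log2 CPM exceeded 5: deviations from the group means correlated at 0.280 to 0.626 over the 30 pairs with the same number and at -0.391 to 0.0484 over the 60 pairs with different numbers. The labels give numbers only. No library repeated another of its group (chi-square over degrees of freedom 5.18 to 14.7). Sampling precision follows the total counts, 1329340 to 4472724 in the 6 libraries.

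Lists and members were chosen with earlier results of these data known, and list counts and medians are descriptions beside those of all genes. Over all genes tested, 1.31% were called, 0.705% as risen and 0.604% as fallen, and 52.5% had a log2 fold change above 0. Genes were named by a rule: the 12 largest rises and 12 largest falls with a readable symbol, no overlap and 20 CPM in the higher group, the 5 smallest p, per list up to 6 called members and the 2 most abundant others, and a fixed set of regulators, of which klf9 was not tested and fkbp5 had no row of that name. Most uncalled list members are given only in the counts. Beyond the rule, mmp7, shc3, bcl2l10, klf17, fosl1, jak2, nfkb2, relb, dnajb1, ubc, tap1, irf9, socs2, socs5, socs6, socs7, ptpn6, slc7a5, slc1a5, slc7a11 and the genes at 0 were chosen after their values were seen. The thrombocyte sum without tubb1 was not planned either. Alternatives were no replicate block, only the 6 libraries, DESeq2 1.42.0 size factors and Wald test, limma 3.58.1 voom, no globins, other filters, a 2-fold minimum change, and leaving out libraries. Promoter motifs were not analysed here. Some genes are not reported here.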

Additional observations from a re-analysis of the deposited data

How the results depend on the processing

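The count of 117 calls was sensitive to how libraries were paired and left out. No replicate block gave 29 calls (16 rose, 13 fell), and so did only the 6 libraries without the block (11 rose, 18 fell), an alternative chosen after seeing the data. With the block, only the 6 libraries gave 110 calls, and fresh and control cultures alone, also chosen afterwards, 105. DESeq2 size factors gave 125 calls, no globins 126, the DESeq2 Wald test 148, no filter 124, a mean of at least 10 CPM 118, and limma voom 78, of which 36 rose. A 2-fold minimum change left 11 (10 rose, 1 fell), fewer by construction. Leaving out each of the 6 libraries gave 60 to 127 calls, 35 to 75 rises and 25 to 52 falls. Without all libraries of replicate number 1 there were 48 calls (31 rose, 17 fell), without number 2 62 (39 rose, 23 fell) and without number 3 105. The cause of these shifts was not tested. Across the 20 alternatives, 5 genes were called in each: fos, myc, odc1, rasl11b and LOC100492529. Every called gene named here kept its direction in each alternative. Named genes that were not called, most of them near 0, changed sign on the log2 scale in some: alas2 (-0.0184 with a mean of at least 10 CPM, -0.00421 without number 2, -0.0265 to 0.0802 over single libraries left out), b2m (-0.00389 with a mean of at least 10 CPM, -0.024 without number 2, -0.0329 to 0.14 over single libraries left out), c1orf198 (0.15 without number 1), dnajb1 (-0.0743 without number 2, -0.0733 to 0.66 over single libraries left out), epor (-0.0557 without number 2, -0.15 to 0.32 over single libraries left out), gata1 (0.0174 without the filter, 0.0197 without number 2, -0.0869 to 0.0534 over single libraries left out), hba1 (-0.00697 without number 2), hbg1 (-0.0234 with a mean of at least 10 CPM, -0.0411 without number 2, -0.0198 to 0.0861 over single libraries left out), hspa1a (-0.00175 with DESeq2 size factors, -0.0022 with no globin genes, -0.00236 with the DESeq2 Wald test, -0.0344 with a mean of at least 10 CPM, -0.19 without number 1, -0.0536 without number 2, -0.11 to 0.31 over single libraries left out), jak2 (-0.00468 with a mean of at least 10 CPM, -0.18 without number 3, -0.0868 to 0.22 over single libraries left out), nfkb2 (-0.29 without number 2, -0.17 to 0.30 over single libraries left out), rgs2 (-2.20 to 0.43 over single libraries left out), sesn1 (-0.29 without number 2, -0.29 without number 3, -0.31 to 0.98 over single libraries left out), slc4a1 (-0.0226 without number 3), tfrc (-0.16 without number 3, -0.0648 to 1.17 over single libraries left out) and tnip2 (0.68 without number 1, -2.04 to 0.27 over single libraries left out). The signs of the uncalled genes socs2, socs5, socs6, socs7, sh2b3, ptpn6, tap1, irf9, slc7a5, slc1a5 and slc7a11 were not followed through the alternatives. Depth limits low genes: 3 counts equal 2.26 CPM in the shallowest fresh library.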

Other observations

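The following 6 genes that rose were chosen after their values were seen. The decoy receptor gene tnfrsf6b, whose mammalian product binds Fas ligand, had 9.6, 10.2 and 3.18 CPM in control culture and 1.48, 1.3 and 0 CPM in fresh cells. Its log2 fold change was 3.02 ± 0.60 (edgeR adjusted p = 0.00161, 0.237 without the block), and the call held without each single library in turn but not without all libraries of replicate number 1 (0.0521) or 2 (0.0819). The decoy interleukin 1 receptor gene il1r2 had 21.8, 11.2 and 3.98 CPM in control culture and 4.43, 0.867 and 4.68 CPM in fresh cells, with overlap (edgeR adjusted p = 0.033, 0.436 without the block, lost without control culture replicate 1 (0.17) or 2 (0.194) or fresh replicate 1 (0.173) or 2 (0.215)). The interleukin 18 binding protein gene il18bp had 31 counts in culture and 0 in fresh cells, at least 6.30-fold higher against a floor of 3 counts over the fresh group (edgeR adjusted p = 0.0103, 0.117 without the block, lost without control culture replicate 1 (0.0542) or fresh replicate 2 (0.131)). All 3 lie near the detection limit in fresh cells. The gene ralgds, which encodes an exchange factor for the small GTPase Ral, had 39.7, 21.2 and 22.3 CPM in control culture and 20.7, 6.07 and 9.94 CPM in fresh cells (log2 fold change 1.25 ± 0.28, edgeR adjusted p = 0.00803, 0.128 without the block, lost without control culture replicate 1 (0.13) or fresh replicate 2 (0.132) or 3 (0.0653)), and rgl2, a gene of the same kind, had 13.1, 7.98 and 5.97 CPM in control culture and 2.21, 2.6 and 0 CPM in fresh cells (edgeR adjusted p = 0.0374, 0.127 without the block, lost without control culture replicate 1 (0.314) or fresh replicate 2 (0.0813) or 3 (0.177)). The cAMP-responsive repressor and activator gene crem had 36.6, 9.23 and 6.76 CPM in control culture and 2.21, 4.33 and 4.09 CPM in fresh cells, with replicate 1 far the highest in culture (edgeR adjusted p = 0.00702, 0.248 without the block, lost without control culture replicate 1 (0.26) or fresh replicate 1 (0.177)).

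Among the falls, 18 of 54 genes carry a LOC-type name, a share of 33.3%, against 7 of 63 rises (11.1%) and 14.3% of all genes tested. The smallest p of the falls belonged to LOC116406873, with 205, 141 and 204 CPM in control culture and 360.3, 326 and 382 CPM in fresh cells, a drop of about the same size in each replicate number (log2 fold change -0.98 ± 0.12, edgeR adjusted p = 5.09e-08). LOC100492529, called in all 20 alternatives, had 6.11, 6.49 and 6.76 CPM in control culture and 25.8, 23 and 78.9 CPM in fresh cells (log2 fold change -2.54 ± 0.38, edgeR adjusted p = 9.32e-06). LOC116408795 had 27, 31.7 and 37.8 CPM in control culture at 1.5 h and 41.3, 101 and 88.3 CPM in fresh cells, and averaged 85.9 CPM at 4.0 h (log2 1.41 ± 0.18 for 4.0 h over 1.5 h, edgeR adjusted p = 1.7e-06). The function of these genes is not given in the files, and they too were picked after their values were seen.

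In the fresh library of replicate 1, trim65 had 69.4 CPM, c1orf198 70.9 CPM, rgs2 29.5 CPM and tnip2 23.6 CPM, each more than 5 times its level in any other library; these genes too were chosen after their values were seen. The interferon response genes b2m and ifit5 stood at 2388, 3487 and 3725 CPM and 113, 78.5 and 76.6 CPM in fresh replicates 1, 2 and 3. What sets this library apart was not tested.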
